A study of Mus musculus with 10 samples.

Results

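The comparison described here is the effect of Pml loss in the liver of mice with free access to food. Liver RNA of 2 Pml wild type and 2 Pml knockout samples, each hybridised to 1 Affymetrix Mouse Gene 2.1 ST array, was compared as knockout minus wild type. These 4 arrays belong to a series of 10. The other 6 arrays hold wild type (3) and knockout (3) liver after 6 h without food, and they served for the estimate of the spread and for a look at the same genes in other samples. All mice were females of the BALB/cByJ strain, 3 months old, kept under specific pathogen free conditions with alternating light and dark, so the fed and fasted groups share strain, sex and age. The labels give neither the sequence deleted from Pml, nor the hour of tissue collection, nor the time of the last meal of the fed mice. They name no separate animal for each array, so the p values below measure only how these samples scatter, and some of that scatter may be technical. Of 22180 genes with a probe set of their own, 13942 lay above the median of the array on at least 2 of the 10 arrays, and all of these were compared. Values are log2 of the normalized intensity of the array, in which a difference of 1 is a 2-fold change, and array medians lay between 5.44 and 5.57 on that scale.

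PML is the scaffold of PML nuclear bodies, protein assemblies of the cell nucleus that recruit SUMO-modified partners such as SP100 and DAXX. It was first known from acute promyelocytic leukaemia, where a translocation fuses it to the retinoic acid receptor alpha. PML has been tied to p53 activation, antiviral defence, oxidative stress and, in liver, to fat and sugar metabolism. In a fed liver, insulin and incoming sugar favour glycogen storage and the synthesis of fat and cholesterol, whereas fasting turns the liver to fat oxidation and glucose output.

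The targeted gene was lower in the knockout arrays. Pml had a log2 intensity of 8.37 and 8.22 in fed wild type and of 6.91 and 6.41 in fed knockout. The groups did not overlap, and both knockout arrays stayed above the array median. The difference was -1.63 (SE 0.22, 95% interval -2.13 to -1.13, limma adjusted p = 0.0398), and 32.3% of the wild type intensity remained. A two-sided exact permutation test over the 6 divisions of the 4 arrays gave p = 0.33, the smallest p that 2 against 2 arrays can reach. Which exons were removed is unknown here and the probes may sit outside them, so the remaining signal is no measure of leftover protein. In the fasted samples, which share no array with the fed ones, Pml was 7.72, 7.50 and 8.13 in wild type and 6.05, 6.35 and 6.14 in knockout, a difference of -1.60 (adjusted p = 0.00433). The call in fed liver is close to the threshold. It was lost when any 1 of the 10 arrays was left out (differences of -1.88 to -1.38, adjusted p from 0.0573 to 0.258).

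Few other genes stood clear of the spread between arrays. The limma fit called 12 of 13942 genes at an adjusted p under 0.05 (0.0861% of genes), 8 higher (0.0574%) and 4 lower (0.0287%) in knockout. At an unadjusted p under 0.05 it gave 1203 genes (8.63%). The calls depended on the other arrays of the fit. With the 4 fed arrays alone, or with the replicate number as a block, limma called 0 genes (1215 and 1160 at an unadjusted p under 0.05), and leaving out 1 array gave 0 to 17 calls. For most genes the arrays of the genotypes overlapped, but 5569 genes (39.9%) showed no overlap, 2260 higher (16.2%) and 3309 lower (23.7%) in knockout. The correlation between arrays was 0.981 within wild type, 0.985 within knockout, and between 0.977 and 0.980 across genotypes. Between the 2 wild type arrays 187 genes differed by over 1 log2 unit, and between the 2 knockout arrays 120 did, against 186 to 246 genes for the 4 pairs across genotypes. The median difference over all genes was -0.02, with a lower quartile of -0.15 and an upper quartile of 0.11. A count of non-overlapping genes in a list is read below against the 16.2% higher and 23.7% lower over all genes.

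The largest difference of all was in Ppp1r3g, a targeting subunit that brings protein phosphatase 1 to glycogen and thereby favours glycogen synthesis. Ppp1r3g had a log2 intensity of 6.41 and 5.96 in fed wild type and of 11.32 and 12.83 in fed knockout. Both wild type arrays were near the median of the array, and both knockout arrays were among its bright genes. The difference of 5.88 (SE 0.58, adjusted p = 0.0256) is a 59.1-fold higher level in knockout. After fasting both genotypes were high, at means of 12.15 and 12.22, with a genotype difference of 0.07 (adjusted p = 0.943). The fed minus fasted contrast of the genotype effect was 5.82 (adjusted p = 0.0221). Ppp1r3g was the called gene that withstood most changes of the analysis, with 14 of 24 alternatives keeping the call and 4 of 10 omissions of 1 array.

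No other gene of glycogen metabolism passed the test. Of 24 list entries 18 were tested and Ppp1r3g alone was called. Without overlap between the arrays, 3 members were higher and 4 lower, and the median difference was 0.00. Ppp1r3b, the main targeting subunit of liver, was 9.23 and 10.36 in wild type and 9.70 and 9.97 in knockout (difference 0.04, SE 0.30). Ppp1r3c, another subunit that promotes glycogen storage, was 9.77 and 9.32 against 8.62 and 8.86 (-0.80, SE 0.86). Its wide error comes with fasted knockout values of 7.66, 6.37 and 9.88. Gys2, liver glycogen synthase, was 10.93 and 10.64 in wild type and 11.17 and 11.34 in knockout (0.47, SE 0.28, not called). Pygl, liver glycogen phosphorylase, differed by 0.02 (SE 0.12) and Gbe1, the branching enzyme, by 0.02 (SE 0.22).

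Txnip, an inhibitor of thioredoxin and of glucose uptake whose transcription follows glucose, rose in fed knockout. It was 9.70 and 9.38 in wild type and 10.73 and 11.29 in knockout, a difference of 1.47 (SE 0.20, adjusted p = 0.0398). Both fed knockout arrays lay above all 3 fasted wild type arrays (10.52, 10.49 and 10.50). Its relative Arrdc4, which responds to sugar through the same transcription factor, was 8.48 and 7.96 against 8.38 and 8.75 (0.35, SE 0.21) and overlapped. Of 16 tested genes of glucose sensing and glycolysis, Txnip was the only one called, with 3 higher and 3 lower without overlap.

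Cyp2b10, the classical target of the drug-sensing nuclear receptor CAR, rose as well. It was tight within each genotype, at 9.51 and 9.54 in wild type and at 10.44 and 10.39 in knockout, a difference of 0.89 (SE 0.12, adjusted p = 0.0398). Mouse Cyp2b genes resemble each other and may share probes. Among 26 tested genes of the CAR and PXR drug metabolism list Cyp2b10 was the only call, while 12 members were higher and 1 was lower without overlap (median 0.07). The receptors themselves were among the 12. Nr1i2, which encodes PXR, was 10.11 and 10.13 in wild type and 10.64 and 10.61 in knockout (0.51, SE 0.11, not called). Nr1i3, which encodes CAR, was 10.35 and 10.29 against 10.95 and 10.59 (0.45, SE 0.15, not called). The differences of Cyp2b13 (0.75, SE 0.27) and Cyp2c37 (0.36, SE 0.13) were not called either.

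The remaining higher genes have varied roles. Zbtb16, which encodes the zinc finger repressor PLZF and is itself a fusion partner of the retinoic acid receptor in leukaemia, was 7.73 and 7.51 in wild type and 9.18 and 9.12 in knockout (1.53, SE 0.21). Cpsf4l, a gene related to a subunit of the RNA cleavage and polyadenylation factor, was 6.29 and 5.69 against 7.69 and 7.46 (1.59, SE 0.20). Neither group overlapped for these genes, and each adjusted p was 0.0398. The numbered transcripts B930025P03Rik (5.49 and 4.72 against 7.15 and 7.29, difference 2.11, SE 0.25) and 1810055G02Rik (8.63 and 8.75 against 9.70 and 9.59, 0.95, SE 0.12) were called at the same adjusted p. For B930025P03Rik wild type array 2 lay below its array median of 5.54 and array 1 close to its own of 5.44. The size of that difference is therefore uncertain. Tas1r2, a subunit of the sweet taste receptor, was called too, but all 4 fed arrays lay at or below the array median (4.56 and 4.35 against 5.47 and 5.39), so no fold is given.

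Besides Pml, 3 genes fell. Pinx1, an inhibitor of telomerase, was 7.25 and 7.51 in wild type and 6.03 and 5.93 in knockout (-1.40, SE 0.19). Snx11, a sorting nexin of endosomes, was 6.81 and 6.89 against 6.10 and 6.02 (-0.79, SE 0.10). The noncoding transcript Gm16551 was 7.51 and 7.79 against 6.58 and 6.24 (-1.24, SE 0.17). Gm16551 neighbours Onecut1, a hepatocyte transcription factor gene, which was 9.05 and 9.27 in wild type and 8.05 and 8.72 in knockout (-0.77, SE 0.23, adjusted p = 0.350). Each of the 3 calls had an adjusted p of 0.0398.

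**Figure D1:**
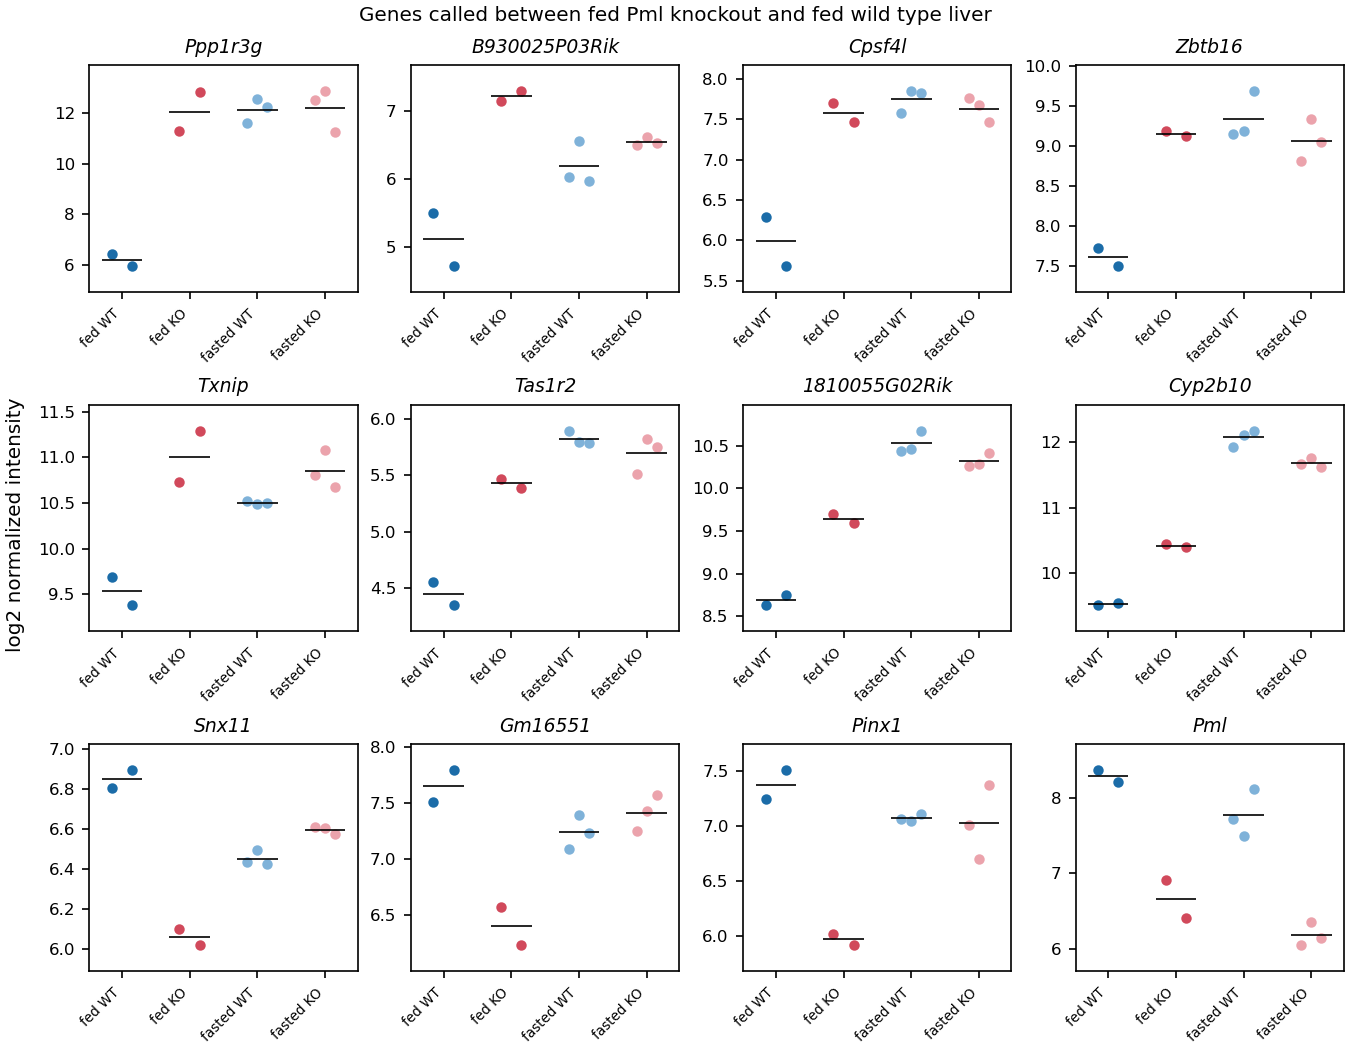
Log2 normalized intensity of the 12 genes called between fed Pml knockout (KO) and fed wild type (WT) liver, 1 point per array, with a black line at the mean of each group and the 3 fasted arrays of each genotype beside them. Fed wild type and fed knockout points do not overlap in any panel, and in Ppp1r3g the fed knockout arrays (11.32 and 12.83) sit at the level of both fasted groups.

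For several of the higher genes the level of fasted wild type liver stands beside the fed values. The fasted wild type mean was 9.35 for Zbtb16, 7.75 for Cpsf4l, 10.52 for 1810055G02Rik and 12.07 for Cyp2b10. The fed knockout arrays of Zbtb16 and Cpsf4l were thus near the fasted wild type level, whereas those of Cyp2b10 and 1810055G02Rik lay between the fed and the fasted wild type levels. Those of B930025P03Rik (7.15 and 7.29) lay above all 3 fasted wild type arrays (6.03, 6.56 and 5.96), as did those of Txnip. Tas1r2 and the called lower genes were not compared in this way. These statements set the same fed wild type arrays against different groups, so they are not independent of each other.

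The plot of differences against their p values shows how the 12 called genes relate to the rest. Below the threshold followed 379 genes with separate groups and at least a 1.5-fold difference, 180 higher and 199 lower, none of them called by limma. The 15 with the smallest p in each direction are described next as values, without a claim of change.

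**Figure D2:**
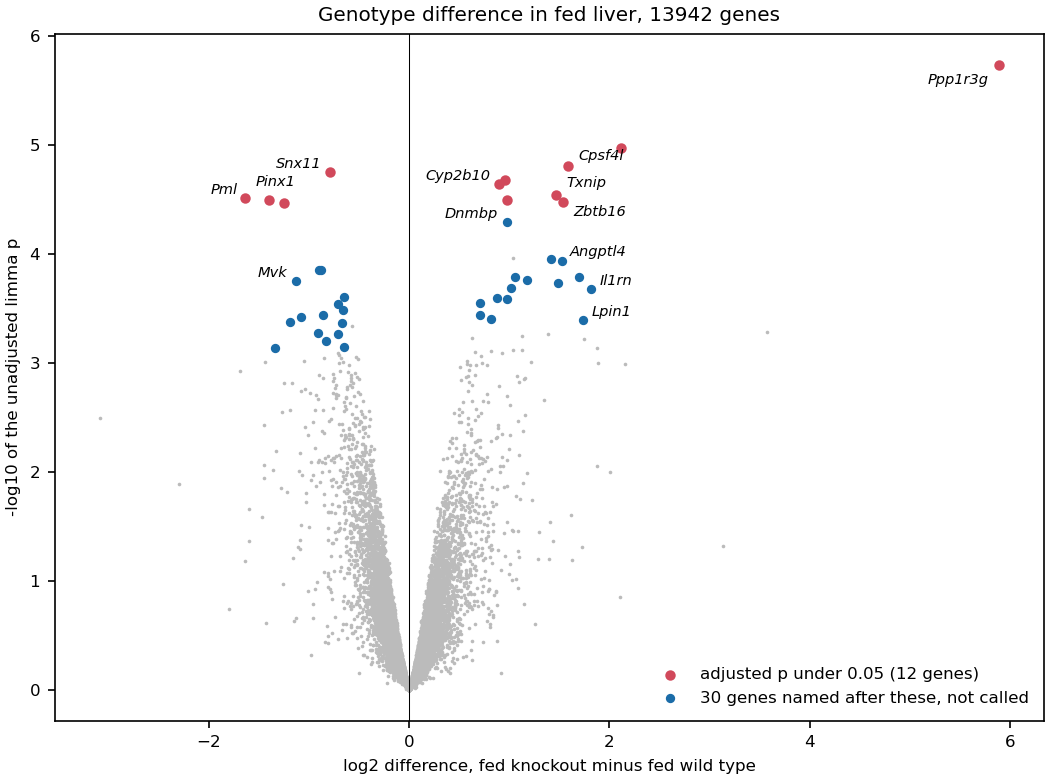
Difference between fed knockout and fed wild type (log2, horizontal axis) against -log10 of the unadjusted limma p (vertical axis) for 13942 genes; red points are the 12 called genes and blue points the 30 genes named after them. Ppp1r3g stands alone at 5.88, and the other called genes lie between -1.63 and 2.11.

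The 15 higher genes have varied roles. Angptl4, a secreted inhibitor of lipoprotein lipase, was 9.31 and 8.58 in wild type and 10.52 and 10.42 in knockout (1.52, SE 0.24, adjusted p = 0.10). Lpin1, the phosphatidate phosphatase lipin 1, which also coactivates PPAR alpha, was 8.61 and 8.94 against 10.52 and 10.52 (1.74, SE 0.33). Mfsd2a, a carrier of lysophospholipids, differed by 0.98. Lgals4, a galectin, was 7.41 and 6.95 against 8.75 and 8.44 (1.41, SE 0.23). The zinc importer gene Slc39a4 was 7.61 and 8.43 against 10.00 and 9.43 (1.69, SE 0.28). Il1rn, the interleukin 1 receptor antagonist, was 6.21 and 5.66 against 7.34 and 8.16 (1.82, SE 0.32), and Il6ra, a receptor chain for interleukin 6, differed by 0.71. Abcc3, an efflux pump for conjugated bile salts, was 10.02 and 9.73 against 10.59 and 10.56 (0.71, SE 0.13). Herpud1, part of the machinery for degrading misfolded proteins of the endoplasmic reticulum, differed by 0.81. Depp1, a target of FOXO transcription factors, was 9.39 and 8.67 against 10.28 and 10.74 (1.48, SE 0.25). Dnmbp, a guanine nucleotide exchange factor for Cdc42, came closest to the threshold (0.97, SE 0.14, adjusted p = 0.0551) and was called in 5 of the 24 alternatives. The other higher ones were Foxp2 (1.06), Plekhf1 (1.18), Tacc2 (1.01) and Rhobtb1 (0.88).

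The 15 lower genes include enzymes of cholesterol synthesis, mevalonate kinase (Mvk, -1.13) and lanosterol demethylase (Cyp51, -1.34), which are described with their pathway. Mmab, which makes the active form of vitamin B12, starts 190 bases from Mvk on the opposite strand and was 8.04 and 8.27 in wild type and 7.20 and 7.29 in knockout (-0.91, SE 0.18). Tigar, a p53 target that lowers fructose 2,6-bisphosphate, was 7.06 and 7.11 in wild type and 6.52 and 6.23 in knockout (-0.71, SE 0.13). Lig4, the DNA ligase of non-homologous end joining, differed by -0.66, and S1pr1, a sphingosine 1-phosphate receptor of endothelial cells, by -0.65. Cd276, an immune checkpoint ligand, was at least 1.78-fold and Ufsp1, a protease of the UFM1 pathway, at least 1.82-fold lower, since both knockout arrays lay at or below the array median. The others were Tmem50b (-0.90), Fdxacb1 (-0.88), Mtmr12 (-0.86), Fam118b (-0.83), Nol10 (-0.70), Rbm15b (-0.67) and Cep295 (-0.64).

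The cholesterol pathway gave the most even pattern among the gene lists. Cholesterol is made from acetyl units by way of mevalonate and squalene, and the genes of the route are switched on together by the membrane-bound factor SREBP2 with its partner NF-Y when sterols are scarce. Of 21 list entries 17 were tested, and the other entries were not analysed here. All 17 tested genes were lower in both fed knockout arrays than in both fed wild type arrays, where 23.7% of all genes were, and 15 had an unadjusted p under 0.05 against 5.21% of all genes in that direction. None was called by limma over all genes. The median difference was -0.84, against -0.02 over all genes.

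In the early, mevalonate part the median was -1.05. Hmgcs1, which makes the precursor of mevalonate, was 11.27 and 11.68 in wild type and 10.21 and 10.35 in knockout (-1.19, SE 0.30). Mvk was 8.22 and 8.60 against 7.25 and 7.30 (-1.13, SE 0.19, adjusted p = 0.112). Mvd, the decarboxylase that ends the mevalonate steps, was 7.50 and 8.95 against 6.75 and 6.81 (-1.45, SE 0.38), and its wild type arrays were far apart. The phosphorylating enzyme Pmvk (-0.96) and the prenyl synthases Fdps (-0.69) and Ggps1 (-0.51) lay in the same direction.

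In the late, sterol part the median was -0.70. Cyp51 was 9.46 and 9.99 in wild type and 8.24 and 8.54 in knockout (-1.34, SE 0.27, adjusted p = 0.193). Sqle, the squalene epoxidase that limits this branch, was 9.56 and 10.61 against 9.17 and 8.81 (-1.09, SE 0.46). Msmo1 (-0.98), the cyclase Lss (-0.87), Nsdhl (-0.84), the squalene synthase Fdft1 (-0.70), Dhcr7 (-0.64) and Hsd17b7 (-0.56) followed. The last steps differed least, with Sc5d at -0.34, Tm7sf2 at -0.28 and Ebp at -0.07, where the knockout arrays at 10.62 and 10.61 were just under the wild type arrays at 10.69 and 10.68. Wild type array 1 lay below wild type array 2 for 14 of the 17 genes, so the gap to knockout was smaller from that array. Leaving out wild type array 1 gave medians of -1.21 for the early and -0.90 for the late genes, and leaving out wild type array 2 gave -0.77 and -0.50.

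Genes of SREBP control and cholesterol uptake had no common order. Of 9 tested 4 were higher and 1 lower without overlap, none was called and the median was 0.09. The lower one was Srebf2, which encodes SREBP2 and is its own target, at 8.85 and 9.26 in wild type and 8.73 and 8.72 in knockout (-0.33, SE 0.20). Insig1, another sterol-responsive gene, was 11.16 and 11.86 against 10.97 and 11.62 (-0.22, SE 0.26) and overlapped. Npc1, the lysosomal cholesterol transporter, was 10.21 and 9.67 against 10.55 and 10.50 (0.58, SE 0.19), and Mylip, which degrades the LDL receptor, was 7.96 and 7.73 against 8.35 and 8.37 (0.52, SE 0.19); neither was called.

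Because these genes share known control elements, the promoters of 4 of them are shown: Mvk and Hmgcs1 from the early part, Cyp51 and Nsdhl from the late part. The windows run from 250 bases before to 50 after the RefSeq start (GRCm38.p6). Capitals mark the CCAAT box bound by NF-Y, as CCAAT or as ATTGG on the other strand, and in Hmgcs1 also the letters TCACNCCAC of a sterol regulatory element.
Mvk promoter, chr5:114444019-114444318, plus strand: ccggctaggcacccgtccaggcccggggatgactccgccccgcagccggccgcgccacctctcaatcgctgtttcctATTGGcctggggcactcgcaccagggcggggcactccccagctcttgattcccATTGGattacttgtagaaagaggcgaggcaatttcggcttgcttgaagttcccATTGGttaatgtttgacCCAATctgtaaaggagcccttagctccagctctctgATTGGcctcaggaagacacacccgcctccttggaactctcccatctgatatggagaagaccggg
Hmgcs1 promoter, chr13:119690101-119690400, plus strand: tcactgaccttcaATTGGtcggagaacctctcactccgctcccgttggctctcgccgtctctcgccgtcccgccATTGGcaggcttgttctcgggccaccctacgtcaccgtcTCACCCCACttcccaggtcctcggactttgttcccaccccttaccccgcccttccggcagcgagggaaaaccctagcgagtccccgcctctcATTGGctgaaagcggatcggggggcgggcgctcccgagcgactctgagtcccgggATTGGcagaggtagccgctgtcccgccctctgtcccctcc
Cyp51 promoter, chr5:4104648-4104947, minus strand: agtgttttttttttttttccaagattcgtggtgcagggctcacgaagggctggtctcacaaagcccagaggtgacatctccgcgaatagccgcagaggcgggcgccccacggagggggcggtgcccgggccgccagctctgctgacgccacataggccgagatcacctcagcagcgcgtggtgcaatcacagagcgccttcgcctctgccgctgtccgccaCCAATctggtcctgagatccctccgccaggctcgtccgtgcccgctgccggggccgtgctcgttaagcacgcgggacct
Nsdhl promoter, chrX:72918271-72918570, plus strand: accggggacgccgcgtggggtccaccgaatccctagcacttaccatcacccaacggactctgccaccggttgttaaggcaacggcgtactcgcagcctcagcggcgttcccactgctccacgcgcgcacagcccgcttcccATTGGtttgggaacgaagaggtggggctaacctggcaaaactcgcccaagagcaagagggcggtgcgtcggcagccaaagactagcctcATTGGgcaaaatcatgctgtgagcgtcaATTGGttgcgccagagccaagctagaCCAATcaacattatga

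A CCAAT box occurs 5 times in the Mvk window, 4 times in those of Hmgcs1 and Nsdhl and once in that of Cyp51. RefSeq windows were at hand for 14 of the 17 tested genes, 17 windows in all, of which 14 (82.4%) hold CCAAT on either strand, against 37.4% of all 32851 windows. TCACNCCAC was found in 1 of the 17 windows, that of Hmgcs1, and in 1.24% of all windows. The motifs do not overlap each other in these windows. Such matches describe the letters only and say nothing of factor binding in these livers.

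Circadian clock genes also separated the genotypes in part. The clock turns on the activators BMAL1 (Arntl) and CLOCK, which drive their own repressors of the Per and Cry families and output factors such as DBP, so activators and outputs peak at opposite times of day. Arntl was 7.50 and 7.10 in fed wild type and 5.72 and 6.02 in fed knockout, and Clock was 10.10 and 10.16 against 9.82 and 9.51. These and Npas2, a relative of CLOCK, were lower without overlap, 3 of a list of 6 tested genes (median -0.24). The others of that list, the activator Rora and the repressors Cry1 and Nfil3, overlapped (0.08, -0.01 and 0.05). Of 14 other tested repressors and outputs 11 were higher and 0 lower (median 0.41), where 16.2% of all genes were higher. The differences of Nr1d1 (-0.22) and Bhlhe41 (-0.17), both with overlap, were below zero. Csnk1e, a kinase gene counted in this list, differed by 0.29. Per1, an early responding repressor, was 7.84 and 8.20 against 8.39 and 8.55, and Dbp was 9.50 and 9.58 against 9.88 and 10.02. Usp2, a rhythmic deubiquitinase, was 7.87 and 8.86 against 9.33 and 9.33. Ciart, an antagonist of the activators, overlapped, at 5.32 and 7.88 against 8.37 and 7.35. No clock gene was called by limma. The errors were wide (SE 1.14 for Arntl, 1.05 for Dbp), because the fit pools the fasted groups, where knockout arrays 1 and 2 stood apart from array 3 (Arntl 4.60, 4.53 and 8.87). In fasted wild type Arntl was 9.29, 9.04 and 9.16, above every fed array. The hour of collection is not given, so clock state and genotype cannot be told apart in the fed comparison, and the part of clock state in the other differences was not tested.

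**Figure D3:**
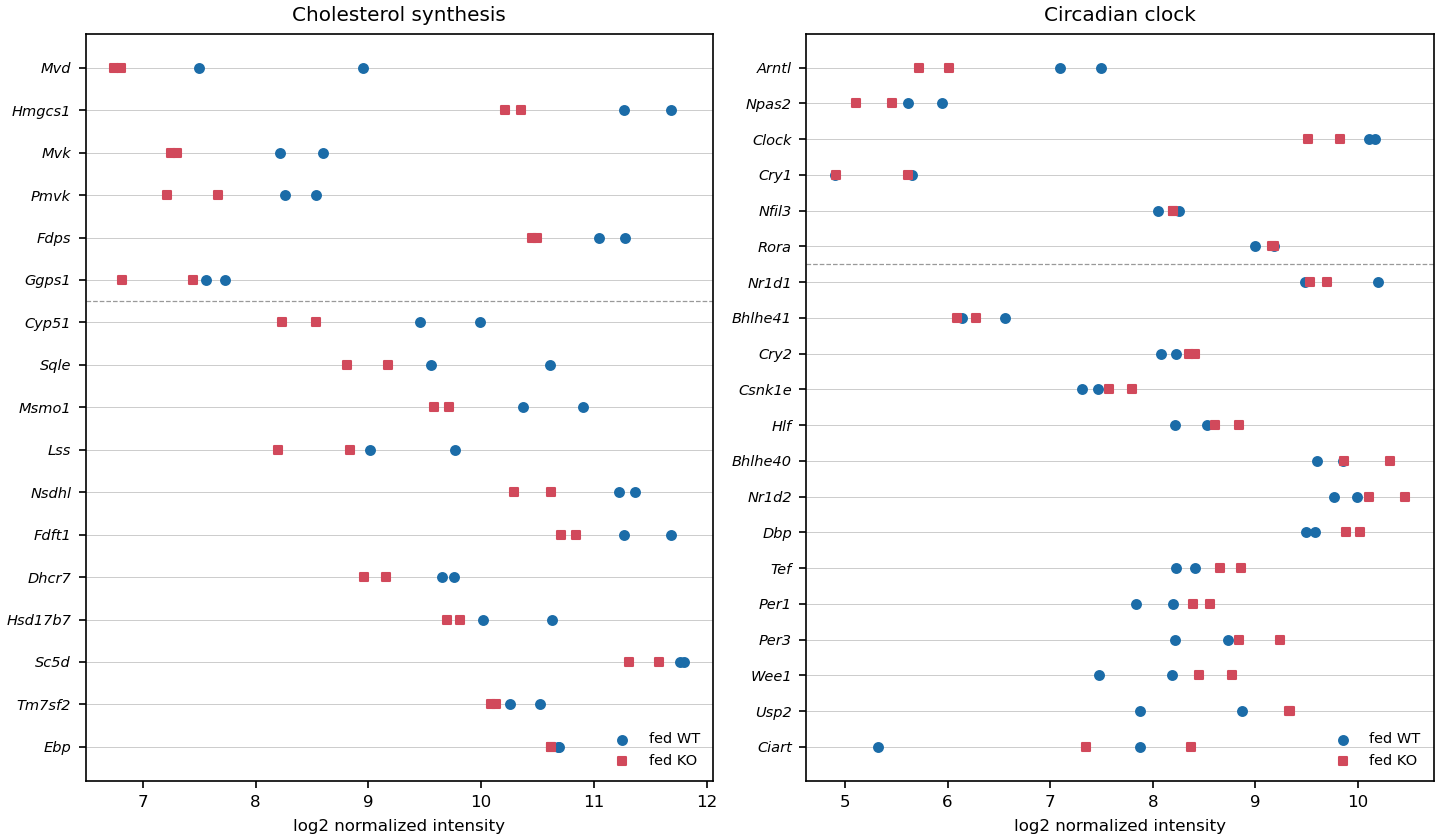
Log2 normalized intensity of the tested cholesterol synthesis genes (left, early part above and late part below the dashed line) and circadian clock genes (right, the activators with Cry1 and Nfil3 above and the other repressors and outputs below the line) on the 2 fed wild type arrays (blue circles) and the 2 fed knockout arrays (red squares). All 17 cholesterol genes have both squares left of both circles, while 11 of the 14 clock genes below the line have both squares to the right.

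Most tested genes of fat use lay above wild type in fed knockout, with no single call. PPAR alpha is the fatty acid sensing receptor that drives fat oxidation in fasting liver. Of 21 tested genes of PPARA regulated lipid handling 16 were higher and 0 lower without overlap, all 21 differences were above zero, and the median was 0.42. After Angptl4 and Lpin1, the smallest p values were those of Lpin2 (9.90 and 9.64 against 10.71 and 10.91, difference 1.04, SE 0.21) and of the acyl-CoA thioesterase Acot3 (9.13 and 8.31 against 10.06 and 9.70, 1.16, SE 0.29), whose family members may share probes. Ppara itself was 10.15 and 9.79 against 10.48 and 10.47 (0.51, SE 0.18).

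Mitochondrial beta oxidation showed smaller and very even differences. Of 18 tested genes 15 were higher and 0 lower without overlap, and all 18 differences were above zero (median 0.14). Cpt1a, which commits fatty acids to the mitochondrion, was 11.25 and 11.07 in wild type and 11.49 and 11.50 in knockout (0.33, SE 0.13), and Decr1, needed for unsaturated fats, differed by 0.27 (SE 0.12). Of 13 tested genes of peroxisomal and omega oxidation 8 were higher and 0 lower without overlap; 10 differences were above and 3 below zero (median 0.19, lowest -0.31). Pex11a, a factor of peroxisome division, was 9.30 and 9.54 against 10.28 and 9.80 (0.62, SE 0.18). The thiolase gene Acaa1b was 9.32 and 10.01 against 10.54 and 10.63 (0.92, SE 0.27). The share of non-overlapping higher genes exceeded the 16.2% of all genes in each of these 3 lists, but no member passed the test. Of 2 tested genes of ketone body synthesis 1 was above zero (0.25) and 1 below (-0.01).

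Several genes that insulin represses were higher by value, without a call. Igfbp1, a secreted binder of insulin-like growth factors that insulin switches off, was 6.33 and 5.83 in wild type and 7.95 and 7.98 in knockout (1.89, SE 0.41, adjusted p = 0.193). Its fasted wild type arrays were far higher, between 10.49 and 11.36. Foxo1, the transcription factor that insulin holds out of the nucleus, was 9.29 and 9.11 against 9.88 and 9.83 (0.66, SE 0.15). Ppargc1a, a coactivator of glucose output, was 8.95 and 8.55 against 9.37 and 9.79 (0.83, SE 0.28), and Trib3, an inhibitor of AKT, was 5.69 and 5.69 against 6.34 and 6.18 (0.57, SE 0.13). Irs1, which relays the insulin signal, was lower, at 8.41 and 8.36 against 7.89 and 7.64 (-0.62, SE 0.21). Of 20 tested genes 10 were higher and 2 lower without overlap (median 0.16), and Pck1, the entry enzyme of glucose synthesis, differed by 0.21 (SE 0.14). No member of this list was called. The fatty acid synthesis genes, by contrast, had a median of -0.03, with 2 higher and 2 lower among 17 tested.

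**Figure D4:**
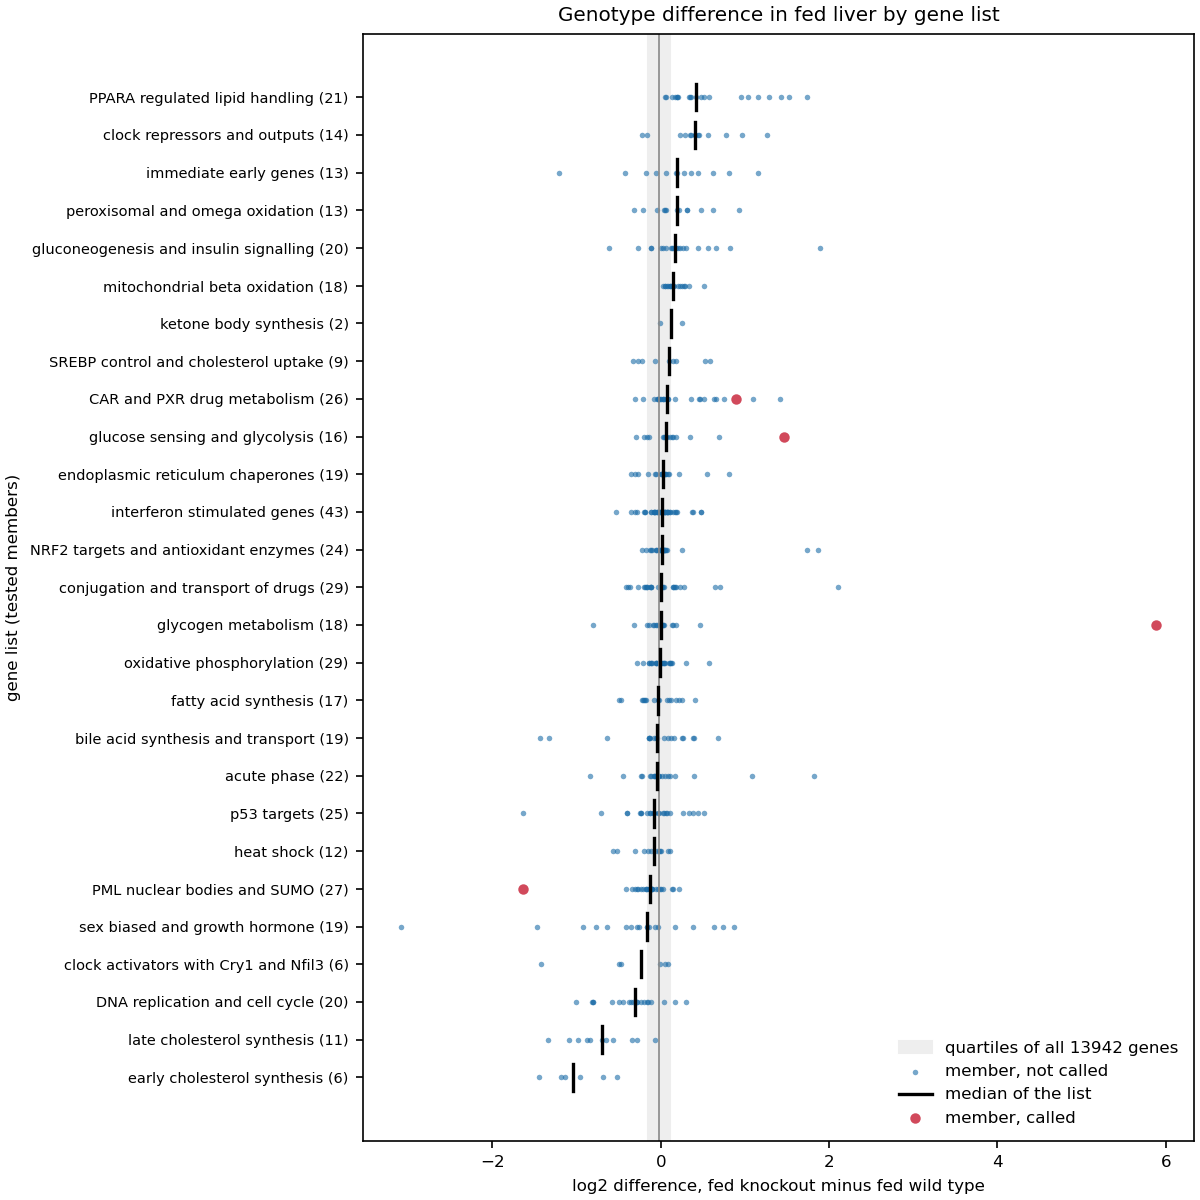
Differences between fed knockout and fed wild type (log2) of the tested members of 27 gene lists, 1 point per gene, called genes in red, with a bar at the median of each list; the grey band spans the quartiles of all 13942 genes (-0.15 to 0.11). The 2 cholesterol lists have medians of -1.05 and -0.70, the lists of PPARA regulated lipid handling and of clock outputs medians of 0.42 and 0.41, and Ppp1r3g lies far outside its list.

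Bile acid genes had differences in both directions. Cyp7a1, the rate-limiting enzyme of bile acid synthesis from cholesterol, was 11.48 and 11.64 in wild type and 10.50 and 9.75 in knockout (-1.43, SE 0.31, adjusted p = 0.193). Cyp7b1, an enzyme of the alternative route, was 10.52 and 10.61 against 9.57 and 8.90 (-1.33, SE 0.39), and the uptake carrier Slco1a1 was 11.60 and 11.44 against 10.84 and 10.91 (-0.64, SE 0.23). Of 19 tested genes 6 were higher and 5 lower without overlap, none was called, and the median was -0.04. Hsd3b5, a steroid reductase of liver that depends on sex and growth hormone, was 10.48 and 9.99 in wild type against 6.25 and 8.04 in knockout (-3.09, SE 0.79, not called). It was also low in all 6 fasted arrays (4.35 to 6.90), and the knockout arrays were far apart. In its list of sex-biased and growth hormone genes 3 were higher and 7 lower of 19. Bcl6, a repressor tied to growth hormone action, was 8.99 and 9.28 against 8.73 and 8.25 (-0.64, SE 0.18).

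The partners of PML in nuclear bodies gave no call. Of 27 tested genes of PML nuclear bodies and SUMO modification Pml alone was called. Without overlap 3 were higher and 14 lower, Pml itself among the 14 (median -0.13). Over all genes 16.2% were higher and 23.7% lower in that way. Among the 14 were Senp1, a SUMO protease (7.13 and 7.32 against 6.96 and 6.79, -0.35, SE 0.11), and Daxx, a histone chaperone of the bodies (6.82 and 6.91 against 6.26 and 6.63, -0.42, SE 0.20). Of 25 tested p53 targets none was called, with 5 higher and 8 lower without overlap (median -0.08). Next to Tigar stood Plk2 (8.15 and 8.25 against 7.74 and 7.86, -0.40, SE 0.12) and Aen, a nuclease induced by p53 (-0.40, SE 0.17). Of 43 tested interferon-stimulated genes 5 were higher and 8 lower (median 0.02), and Irf1 had the smallest p (8.56 and 8.27 against 8.0 and 7.78, -0.53, SE 0.20). The medians of these 3 lists lay within the quartiles of all genes, a band of single genes that does not measure the shift of a list. In the list of PML nuclear bodies and SUMO modification 22 of 27 differences were below zero, Pml itself included. Over all genes 7675 of 13942 were.

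Among antioxidant genes the metallothioneins had the largest values. Of 24 tested NRF2 targets and antioxidant enzymes 5 were higher and 3 lower without overlap (median 0.02). Mt1, a zinc-binding metallothionein, was 6.22 and 7.0 in wild type and 8.88 and 7.82 in knockout (1.74, SE 0.35), and Mt2 was 7.48 and 8.76 against 11.03 and 8.95 (1.87, SE 0.57). Neither was called, and the copies may share probes. Of 20 tested genes of DNA replication and the cell cycle none was higher and 8 were lower without overlap (median -0.31). Mcm4, a helicase subunit of replication, was 6.76 and 6.59 against 5.76 and 5.97 (-0.81, SE 0.24), and Ccna2, cyclin A2, was 6.80 and 7.82 against 6.69 and 6.31 (-0.81, SE 0.33). Klf10, an early response factor that also follows glucose, was 7.40 and 7.55 against 8.25 and 9.0 (1.15, SE 0.26). Bag3, a heat shock cochaperone, was 7.71 and 8.08 against 7.22 and 7.43 (-0.57, SE 0.21). Oxidative phosphorylation, endoplasmic reticulum chaperones, drug conjugation and the acute phase had medians between -0.05 and 0.02. Of 592 genes in the 27 lists 498 were tested, and 4 were called.

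The genotype difference in fed liver was compared with that in fasted liver, which rests on other arrays. Over all genes the fed and fasted differences had a Pearson correlation of -0.06 and a Spearman correlation of -0.08. These describe genes within 1 study, and genes are no independent replicates. In the fasted samples 1549 genes were called (11.1%), among them 931 higher in knockout (6.68%). Of the 12 genes called in fed liver, Pml was called in the same direction and Cyp2b10 in the opposite one (fasted difference -0.39, adjusted p = 0.0337). The contrast of fed minus fasted differences was called for 294 genes (2.11%) and for 10 of the 12, the exceptions being Pml (adjusted p = 0.968) and Txnip (0.0585). Among the 10 is Tas1r2, whose fed values all lay at or below the array median. The 12 were chosen by their fed values, so a smaller difference in other samples can come from the choice itself.

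Among the 17 cholesterol genes the fasted differences had both signs. The fasted median was 0.11, 11 of 17 were above and 6 below zero, and Mvk (1.07, adjusted p = 0.00685), Nsdhl (0.75) and Sc5d (0.43) were called higher in fasted knockout. The contrast was called below zero, as for 1.32% of all genes, for Mvk (-2.21, adjusted p = 0.0170), Cyp51 (-1.75), Nsdhl (-1.60), Msmo1 (-1.54) and Fdft1 (-1.25). Cyp7a1 turned its sign, lower by -1.43 in fed and higher by 2.13 (adjusted p = 0.00433) in fasted knockout, with a contrast of -3.57 (adjusted p = 0.0170). Igfbp1 went from 1.89 in fed to -1.36 in fasted (contrast 3.25, adjusted p = 0.0278) and Foxo1 from 0.66 to -0.60 (contrast 1.25). Fed and fasted wild type arrays also differed in Arntl, and the part of collection time in these contrasts was not tested. The contrasts further rest on fasted knockout arrays that split in their clock genes. Without arrays 1 and 2 of that group, none of the 46 contrasts called among the genes named here was called (adjusted p from 0.0650 to 0.147) and none turned its sign. Without array 1 alone 18 of the 46 were called, without array 2 alone 37 and without array 3 alone 40.

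**Figure D5:**
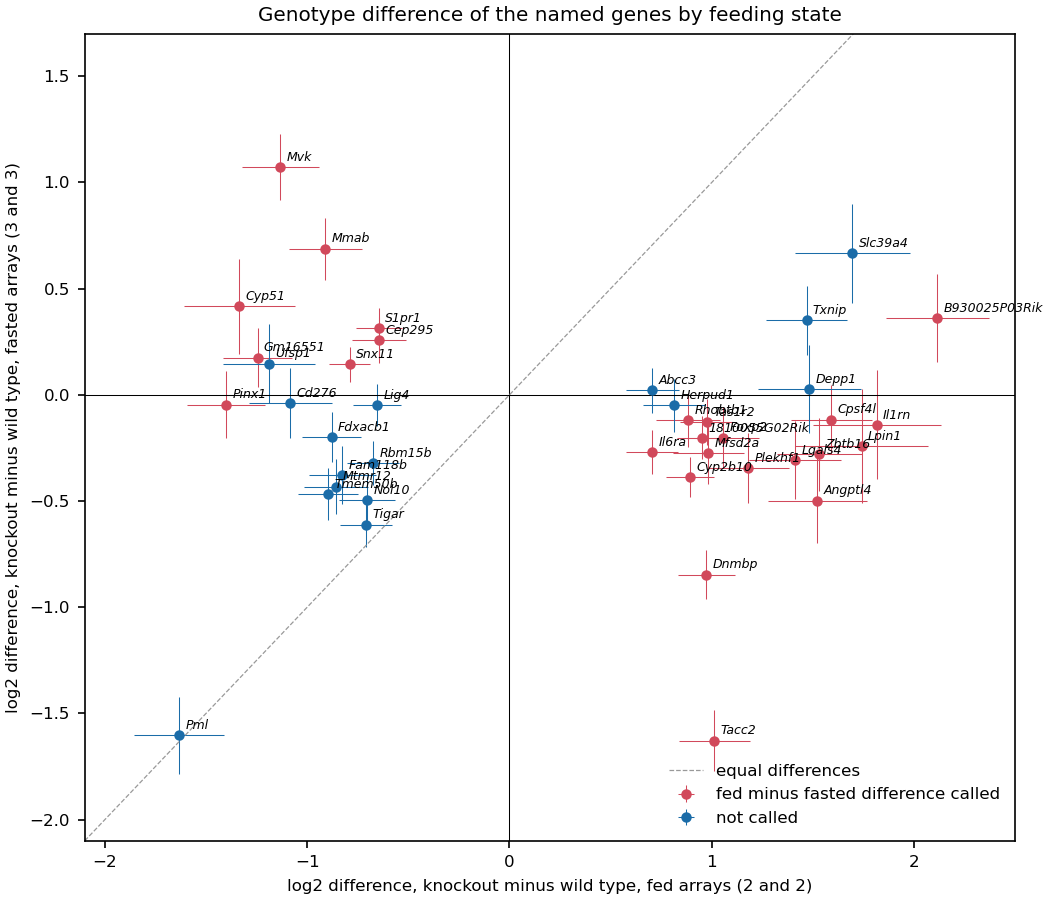
Knockout minus wild type difference (log2) in fed arrays (horizontal axis, 2 and 2) against that in fasted arrays (vertical axis, 3 and 3) for 11 of the 12 called genes and the 30 genes after them, with bars of 1 SE; Ppp1r3g, at 5.88 and 0.07, lies outside the plotted range. Red points have a called contrast between the fed and the fasted arrays, and Pml sits on the dashed line of equal differences.

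Pml neighbours on the chromosome were looked at as a group. Of 303 tested genes within 20 Mb of Pml in the RefSeq order, Pml itself left out, 1 was called higher and 1 lower. These were Zbtb16, 9.49 Mb away, and Gm16551, 16.62 Mb away. Over all genes 0.0574% were called higher and 0.0287% lower. Whether nearness to Pml plays a part in the 2 calls was not tested. The median difference of the 303 genes was -0.04. On the rest of the chromosome none of 477 tested genes was called by limma, and the median was -0.03. Within 20 Mb, 45.5% of the genes showed no overlap, against 40.9% on the rest of the chromosome. Cd276, close to Pml on the chromosome, was 6.18 and 6.49 in wild type and 5.38 and 5.13 in knockout and was not called. The strain in which the allele was made is not given in the labels.

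Cell type markers had similar summed levels in both genotypes. In bulk liver, fewer cells of a type and less RNA per cell cannot be told apart. Of 128 marker genes in 13 lists 82 were tested and limma called 0. At an unadjusted p under 0.05 it gave 4, Axin2, Tbx3, Sox9 and Tek, a cut that 8.63% of all genes passed. Axin2 and Tbx3 are on the list of pericentral hepatocytes, those around the central vein. Among the 10 tested members of that list 5 differences were above and 5 below zero (median 0.01). Without overlap 2 were higher and 2 lower. Axin2, a target of WNT signalling, was 6.23 and 5.98 in wild type and 5.50 and 4.69 in knockout, at least 1.51-fold lower since both knockout arrays lay at or below the array median. Tbx3 was 8.63 and 8.22 against 7.63 and 7.08 (-1.07, SE 0.34). Lgr5, a WNT pathway receptor of the same list, overlapped in fed liver (7.97 and 7.54 against 7.80 and 6.40). In fasted liver it was 4.52, 4.97 and 4.17 in wild type, all at or below the array median, and 7.57, 7.41 and 6.90 in knockout. The contrast of its fed and fasted differences was called (-3.40, adjusted p = 0.0278). The summed intensity of pericentral markers was 21165 and 20185 in wild type and 22713 and 20493 in knockout, and that of periportal markers 16412 and 14913 against 16608 and 16771. The summed intensity of hepatocyte markers was 50705 and 49781 in wild type and 48872 and 51207 in knockout. Kupffer cell and macrophage markers summed to 6329 and 5016 against 5227 and 5509, and sinusoidal endothelial markers to 10221 and 9144 against 9957 and 9643. B and plasma cell markers, dim throughout, ranged more widely, with 552 and 524 in wild type and 676 and 365 in knockout. Pancreas markers summed to 97.5 and 114 against 128 and 99.7, and no neutrophil or red blood cell marker passed the filter.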

How the data were processed

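The authors deposited a linear normalized intensity for each probe set of each array; RMA and Affymetrix Expression Console are named in the submitters' processing notes, without versions or genome build. Between 228 and 489 values per array lay under 0.1, so how probes were summarised is not certain. Deposited intensities were converted to log2 and not normalized again. Probe sets with 1 symbol (23521 of 41345) were kept if above the array median on 2 or more arrays, and the brightest stood for its gene. A model of 4 group means was fitted to all 10 arrays (limma 3.58.1, R 4.3.3). Benjamini-Hochberg adjustment ran over 13942 genes, with calls at an adjusted p under 0.05. A simulation with independent noise required only that the median estimate recover the planted change. It held no split group like the fasted knockout arrays, so it gives no error rate for the calls here. The number of arrays limits the precision, and copies in gene families may share probes. A fold against a group at or below the array median on both arrays is a bound against that median. The text names Pml, all called genes, the 15 genes per direction after them with separate groups and a 1.5-fold difference, the cholesterol, clock and glycogen genes, and up to 6 further members of each list by p. Members and lists were chosen with earlier results of these data known. Symbols came from the platform annotation and promoters from RefSeq (GRCm38.p6). Feeding was taken from sample titles, since the note on food removal stands with every sample.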

Additional observations from a re-analysis of the deposited data

Results flagged for a closer look

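The genotype difference itself differed between the fed and the fasted arrays for 46 of the genes named, by the limma contrast of the fed minus the fasted difference at an adjusted p under 0.05. This was so for 2.11% of all genes, a share that sets no scale for the genes named, since many of them were chosen by their fed difference, which is part of the contrast. The contrast, on the log2 scale, is given in brackets; above zero it means that knockout stood higher against wild type in fed than in fasted liver. Among the genes called in fed liver these were Cyp2b10 (1.28), Ppp1r3g (5.82), Cpsf4l (1.71), Snx11 (-0.93), 1810055G02Rik (1.16), Zbtb16 (1.81), Gm16551 (-1.42), Tas1r2 (1.10), Pinx1 (-1.35) and B930025P03Rik (1.75). Around cholesterol and bile acid synthesis they were Mvk (-2.21), Cyp51 (-1.75), Nsdhl (-1.60), Msmo1 (-1.54), Fdft1 (-1.25), Mmab (-1.60) and Cyp7a1 (-3.57). In fat use and insulin response they were Angptl4 (2.02), Lpin1 (1.98), Lpin2 (1.76), Acot3 (1.86), Pex11a (1.40), Acaa1b (1.65), Ppargc1b (1.17), Igfbp1 (3.25) and Foxo1 (1.25). The genes after the called ones and the remaining list members with a contrast above zero were Tacc2 (2.64), Dnmbp (1.82), Il6ra (0.97), Plekhf1 (1.53), Lgals4 (1.72), Adam11 (1.83), Nr1i2 (0.81), Mfsd2a (1.26), Foxp2 (1.26), Rhobtb1 (1.00) and Il1rn (1.96). Those below zero were Lgr5 (-3.40), Phka2 (-1.14), Gyg (-1.09), Mcm4 (-2.20), Ccng1 (-0.77), Apol9a (-1.62), Ugt2b35 (-1.13), S1pr1 (-0.96) and Cep295 (-0.90). The fed values of Tas1r2 and the fasted wild type values of Mcm4 and Lgr5 all lay at or below the array median, so their contrasts are no measure of size. The largest contrasts of opposite sign were in Ppp1r3g, which was high in every group but fed wild type, and in Cyp7a1, which was lower in fed and higher in fasted knockout. The wild type groups differed in the clock gene Arntl, at 7.50 and 7.10 in fed and 9.29, 9.04 and 9.16 in fasted arrays. No collection hour is given for either group. Whether the contrasts follow food or the time of day was not tested. All of these contrasts use the 3 fasted knockout arrays, whose clock genes split; with arrays 1 and 2 of that group left out, which was decided after the data were seen, the 46 contrasts kept their sign and none was called (adjusted p from 0.0650 to 0.147). The lone array is then assumed to vary like the other groups. The fed part of each contrast is unchanged in that fit, and many of the genes were chosen by it. The kept sign is thus largely built in and is no support for the contrasts. Without array 1 alone 18 of the 46 were called, without array 2 alone 37 and without array 3 alone 40.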

How the results depend on the processing

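The count of 12 called genes (8 higher, 4 lower) depended on the fit and on single arrays. It lay between 11 and 13 with centred arrays, quantile normalization, the stricter filter, the filter on fed arrays, the mean of probe sets, log2 of the value + 1 and array weights. With moderation by trend and robust it was 24, of which 9 were among the 12. With no filter it was 4 (Pml adjusted p = 0.125), a fit over more genes, with 1 of the 12 among them. With the fed arrays alone limma called 0, with 1215 genes at an unadjusted p under 0.05 (Pml adjusted p = 0.386). It was 2 without the fasted knockout group and 2 with its arrays 1 and 2 left out (Pml adjusted p = 0.0967 in both). Leaving out 1 array gave 0 to 17: 17 without fed wild type array 1 (3 of the 12 among them), 3 without its array 2 (0 of the 12), 7 and 0 without fed knockout arrays 1 and 2, 0, 2 and 0 without fasted wild type arrays 1, 2 and 3, and 0, 0 and 14 without fasted knockout arrays 1, 2 and 3. In those of these fits with 0 calls, 987 to 1248 genes had an unadjusted p under 0.05. The Pml difference of -1.63 lay between -1.88 and -1.38 over the omissions, none of which called it.

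Replicate numbers are shared between groups in the labels, with nothing said of pairing. Same-numbered fed arrays deviated in opposite directions (r = -0.173), so the numbers were not taken as pairs. The replicate block gave 0 calls (1160 genes at an unadjusted p under 0.05; Pml -1.63, adjusted p = 0.150). With the fed knockout numbers crossed, a pairing added after the data were seen, the block gave 0 as well (1249 genes; Pml adjusted p = 0.0826).

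No called gene changed its direction in any alternative. The fed arrays of these genes do not overlap, so leaving out 1 array could not turn the sign of a probe set. Most other alternatives leave the fed difference as it is. The kept direction is therefore no evidence of stability. The medians of the cholesterol genes lay between -1.21 and -0.77 for the early and between -0.90 and -0.50 for the late part. Across alternatives the call was kept in 14 of 24 for Ppp1r3g, 11 for B930025P03Rik and Pinx1, 10 for Cpsf4l and Txnip, 9 for Cyp2b10 and 1810055G02Rik, 8 for Pml, Snx11, Zbtb16 and Gm16551, and in 3 of 22 for Tas1r2. With 2 arrays per fed group, differences that are small against the median SE of 0.16 were not detectable. Far larger ones also stayed without a call. Dnmbp and Mvk differed by much more than their own SE and were not called. The lack of a call is thus no evidence that a gene is unchanged.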

Other observations

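Genes of fatty acid synthesis divided the fed arrays by their number and not by genotype. All 17 tested members were lower on array 1 than on array 2 in wild type and also in knockout, an order that 21.6% of all genes had in both genotypes. The mean log2 intensity of the list was 10.14 and 10.67 on wild type arrays 1 and 2 and 10.05 and 10.68 on knockout arrays 1 and 2. Pnpla3, a lipid droplet protein under the control of lipogenic factors, was 3.93 and 7.94 in wild type and 3.96 and 7.47 in knockout. Fasn, fatty acid synthase, was 10.90 and 11.67 against 10.72 and 11.78. Both genes were chosen after their values were seen. The labels do not say what the numbers stand for, and over all genes the same-numbered fed arrays did not deviate together.

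Single genes differed widely between fed arrays. Sult2a1 and Sult2a2, sulfotransferases of steroids and bile acids that may share probes, were 3.88 and 4.22 on fed wild type array 1. On the other 9 arrays they lay between 7.84 and 10.67 and between 9.18 and 11.28. Cyp3a16, a cytochrome P450, was 5.73 and 9.77 in fed wild type and 9.72 and 5.73 in fed knockout. Rgs16, a regulator of G protein signalling, had the largest difference in fed liver after Ppp1r3g, at 8.37 and 6.78 against 10.96 and 11.34 (3.58, SE 0.70), and was not called (limma adjusted p = 0.177). These genes too were picked after their values were seen.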
